A study of Mus musculus with 4 samples.

Results

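*Il10*, *Il21*, *Ahr* and *Lag3* are genes that mouse CD4+ T cells use in IL-10-producing regulatory responses, those of type 1 regulatory (Tr1) cells above all. *Il24* was added because it lies beside *Il10* on chromosome 1. The 5 together are called members or regulatory genes for short, *Il24* by its position and not by a regulatory role. The members were taken by gene symbol from the authors' deposited table of expression in Th9 cells, and all 5 were found among its 515 genes. They were chosen by their FPKM in WT and *Areg-/-* Th9 cells, the same contrast that is described here, so their values are given as a description and no test was run on them. Th9 cells are CD4+ helper T cells that make IL-9. Naïve CD4+CD62L+ T cells were sorted from the spleen and lymph nodes of wild-type (WT) and *Areg-/-* mice, 6 to 12 weeks old. The cells were activated with anti-CD3 and anti-CD28 and differentiated with TGF-β1 and IL-4 for 3 days. The methods name C57BL/6 mice and give no strain for the *Areg-/-* mice. Amphiregulin is 1 of the ligands of EGFR, and *Areg-/-* mice lack it in every cell of the body and not in T cells alone. The labels give 2 samples of each genotype and do not say whether they came from separate mice. The comparison asks how Th9 cells differ when the amphiregulin gene is missing.

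The table gives 1 FPKM value per gene and genotype (fragments scaled to transcript length and to the size of the library), in which both samples of a genotype are combined. No spread between samples, interval or depth per sample can therefore be given, and no difference below was held against replicate error. All 515 genes of the table are marked as significant by the authors. A gene outside it was not analysed here, and its absence says nothing on its level. *Areg* itself was not in the table, and the knockout was not checked at that gene. The methods call the mice sex matched. *Xist*, a transcript of female cells chosen after its values were seen, had 15.5 FPKM in WT against 43.4 FPKM in *Areg-/-* cells. Whether both genotypes had the same make-up by sex was not tested. The table's name for the WT column states that no doxycycline was given, and its name for the *Areg-/-* column does not mention the drug. None of 8 T cell markers (*Cd3e* and *Cd4* among them) was in the table, so the labelled cell type could not be checked against them.

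IL-10 is a cytokine that limits inflammation by acting on myeloid cells and on T cells themselves. Tr1 cells make large amounts of it without stable expression of Foxp3, and IL-27 with TGF-β is a well-known way to induce them. In these cells the ligand-activated transcription factor AHR acts together with c-MAF on *Il10* and *Il21*, IL-21 sustains the cells in an autocrine manner, and LAG-3 is a surface marker. IL-24 is another cytokine of the IL-10 family, which signals through receptors that contain IL-20RB and acts mainly on epithelial cells.

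The sequence upstream of *Il21* is shown because AHR, the transcription factor among the members, and HIF1α, the hypoxia-inducible factor named in the study's title, have related short recognition cores. RefSeq promoter sequence (GRCm38.p6) was matched for *Il21* and not for *Il10*, *Il24*, *Ahr* or *Lag3*. The 250 bases before the RefSeq start of *Il21* lie at chr3:37232637-37232886 on the minus strand, and capitals mark the 2 cores.

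*Il21* upstream sequence: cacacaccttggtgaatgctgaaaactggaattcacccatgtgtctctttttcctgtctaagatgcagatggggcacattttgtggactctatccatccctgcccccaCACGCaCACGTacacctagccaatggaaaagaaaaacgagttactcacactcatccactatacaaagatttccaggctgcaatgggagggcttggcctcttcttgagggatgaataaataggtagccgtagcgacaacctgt

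The AHR core GCGTG was found 1 time, as its reverse complement, 142 to 138 bases before the start. HIF can also bind GCGTG, so this match does not tell AHR from HIF. The HIF core was searched for only in the form ACGTG, which was also found 1 time. This match was again the reverse complement, 136 to 132 bases before the start, so that a single base separates both matches. Over 32851 RefSeq promoter windows of the same length, searched on both strands, 28.2% held GCGTG, 16.6% held ACGTG and 6.13% held both. The window of *Il21* also had 3 matches to GGAAA, the core of NFAT sites, which 55.6% of windows held, and 1 to TGCTGA, a MAF half-site, which 16.1% of windows held. The AP-1 motif TGANTCA had 0 matches in it, and 6.75% of windows held it. These matches describe letters in the window and not binding.

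All 5 regulatory genes had a higher FPKM in *Areg-/-* than in WT Th9 cells, and after centring on the median log2 ratio of the whole table (0.62) 3 remained higher, while *Il24* and *Lag3* were just below 0. Directions in the rest of the text are those of the deposited values. Of all 515 genes in the table, 356 or 69.1% were higher in *Areg-/-* cells, so the direction of the members was that of most genes beside them. Their log2 ratios of *Areg-/-* over WT lay between 0.58 and 0.78, with a median of 0.66 beside a median of 0.62 over all genes of the table. A ratio of at least 1.5-fold was reached by 4 of the 5 members and by 53.6% of the table. A ratio of at least 2-fold was reached by 0 members and by 25.2% of the table. The methods of the study name a fold limit of this size for differential expression, so none of the members met it. The smallest increase among the 356 higher genes was 1.33-fold, and genes with smaller increases were not in the table. Since these are bulk samples, more cells that express a gene and more RNA per cell cannot be told apart.

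**Figure D1:**
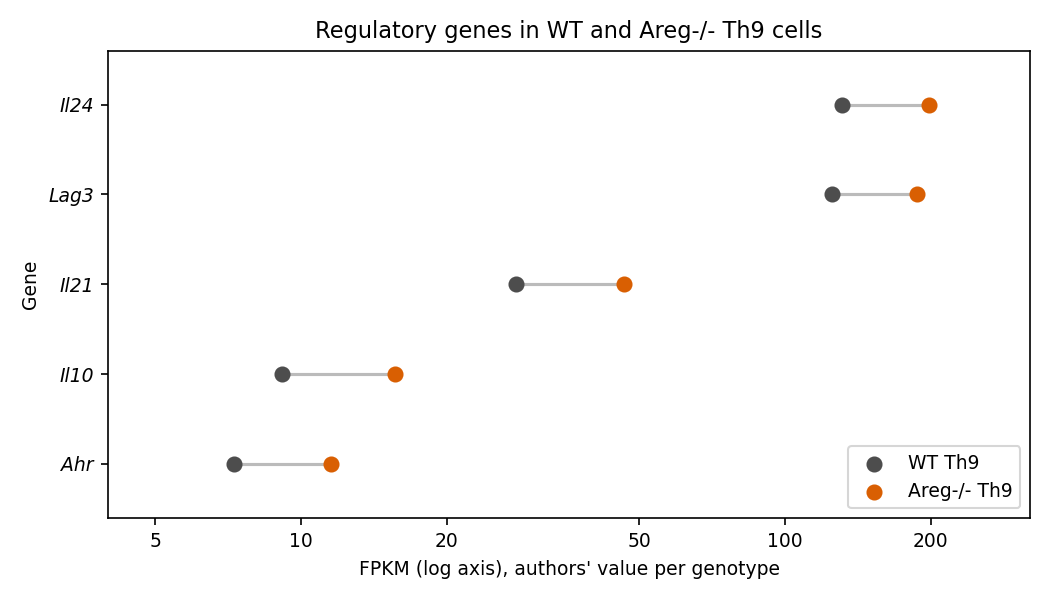
FPKM of the 5 regulatory genes in WT (grey) and *Areg-/-* (orange) Th9 cells on a log axis, 1 authors' value per gene and genotype, without error bars because no values per sample were given. The *Areg-/-* point lies to the right of the WT point for each gene before any centring, from *Ahr* (7.28 and 11.5 FPKM) to *Il24* (131.2 and 197.8 FPKM).

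*Il10* (ENSMUSG00000016529.5) encodes the cytokine IL-10 itself. It is a protein-coding gene on the plus strand of chromosome 1 of GRCm38, from 131019845 to 131024974, with 5 exons and no other annotated gene overlapping it. It had 9.13 FPKM in WT against 15.6 FPKM in *Areg-/-* cells, a ratio of 1.71-fold and the largest of the 5. With a log2 ratio of 0.78 it took position 193 of 515 genes when ordered from the highest to the lowest ratio. Of the other genes in the table, 163 had a WT level within 2-fold of *Il10*. Of these, 107 were higher in *Areg-/-* cells, 39 by a larger and 68 by a smaller ratio than *Il10*.

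*Il24* (ENSMUSG00000026420.16) encodes IL-24. Its gene occupies chromosome 1 from 130882074 to 130887454 (minus strand), and has 6 exons in its principal transcript and no overlapping gene. It had the highest level of the 5 members in both genotypes, 131.2 FPKM in WT against 197.8 FPKM in *Areg-/-* cells. The ratio was 1.51-fold, a log2 ratio of 0.59 at position 273. By FPKM it was at position 16 of the 515 genes in WT and at position 15 in *Areg-/-* cells. Per length, *Il24* transcript exceeded that of *Il10* by 14.4-fold in WT and by 12.7-fold in *Areg-/-* cells.

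*Il10* and *Il24* are separated by 132 kb, with *Il19* and *Il20*, further genes of the same family, between them. They lie on opposite strands and are transcribed away from each other. Of 12 genes looked for at this locus, *Il10* and *Il24* were the only 2 in the table. The other 10, *Il19*, *Il20*, *Fcmr* and *Mapkapk2* among them, were not in it. Of 7 cytokines of the IL-10 family, likewise, *Il10* and *Il24* were in the table, both higher as deposited, *Il10* alone after centring. Of 7 receptor genes of the family, including *Il10ra* and *Il10rb*, 0 were in the table.

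*Il21* (ENSMUSG00000027718.8) encodes IL-21, a cytokine of the common gamma chain family that acts on T and B cells. It extends from 37222759 to 37232636 of chromosome 3, minus strand, and its principal transcript has 5 exons. The value was 27.8 FPKM in WT against 46.5 FPKM in *Areg-/-* cells, 1.67-fold higher, with a log2 ratio of 0.74 at position 205. Of 120 genes with a WT level within 2-fold of *Il21*, 68 were higher, 16 of them by a larger ratio and 52 by a smaller one. The noncoding gene *Gm12534* lies within *Il21* on the opposite strand. Whether reads were counted by strand is not given in the sources used here, so the value of *Il21* could include reads of it.

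*Il2*, which encodes the main T cell growth factor, is the neighbour of *Il21* at a distance of 96.8 kb, and its value went the other way. *Il2* had 27.0 FPKM in WT against 3.92 FPKM in *Areg-/-* cells, a log2 ratio of -2.79. In WT cells the 2 neighbours were thus at a like level, with 1.03 times as much *Il21* as *Il2*, and in *Areg-/-* cells *Il21* was 11.9 times *Il2*. Of 9 genes looked for at this locus, *Il2* and *Il21* were in the table. *Spry1*, an inhibitor of receptor tyrosine kinase signalling located 407 kb from *Il21*, was chosen after its values were seen. It had 23.5 FPKM in WT against 15.8 FPKM in *Areg-/-* cells.

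**Figure D2:**
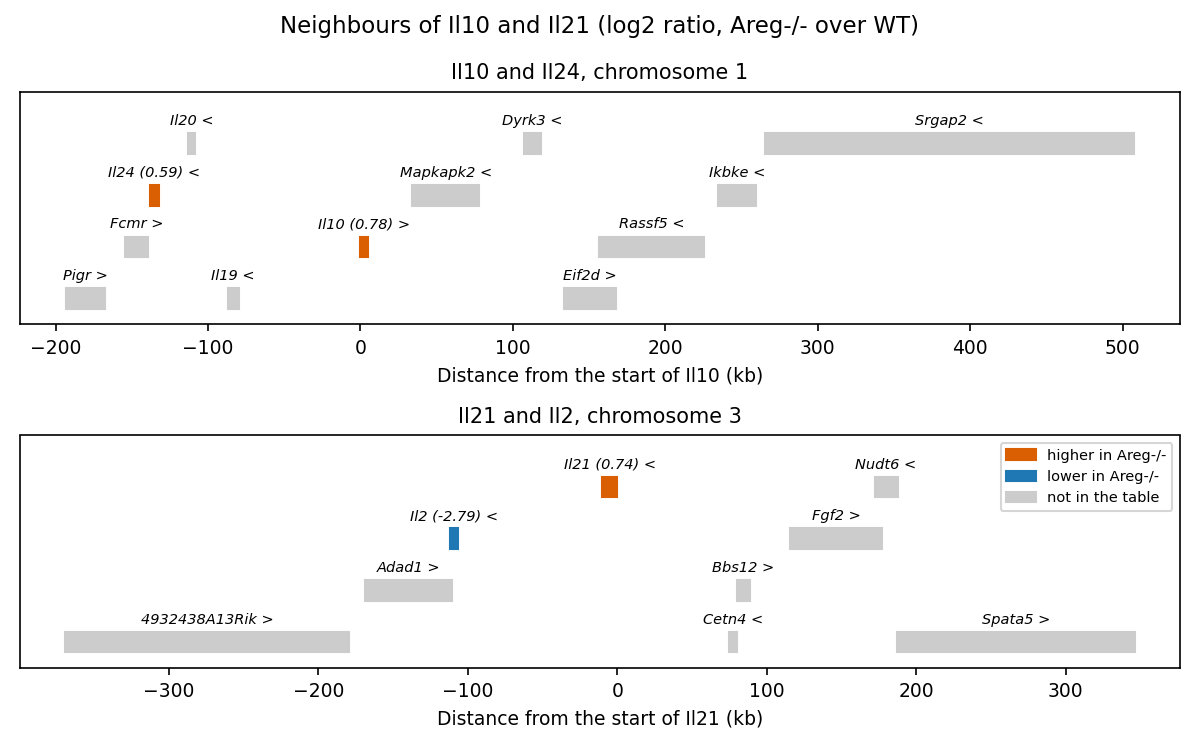
Genes looked for around *Il10* (chromosome 1) and *Il21* (chromosome 3), drawn to scale by their distance in kb from the start of the named gene, with arrowheads for the strand. Numbers in brackets are log2 ratios of *Areg-/-* over WT, orange genes were higher, blue genes lower and grey genes not in the table: *Il10* and *Il24* were both higher as deposited (*Il24* not after centring), and *Il21* (0.74) was higher while *Il2* (-2.79) was lower.

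Among the cytokines and receptors of the common gamma chain family, 4 of 14 genes were in the table. The member *Il21* was the only one of them with a higher value in *Areg-/-* cells, beside 69.1% higher over the whole table. The other 3 were *Il2*, *Il4* and *Il9*, all lower. *Il4*, the cytokine of Th2 cells, had 101.2 FPKM in WT against 56.0 FPKM in *Areg-/-* cells. *Il9*, the cytokine that names the Th9 cell, had 3.82 FPKM and 1.24 FPKM. The median log2 ratio of the 4 genes was -1.24. *Il10* transcript was 2.39 times that of *Il9* in WT and 12.6 times in *Areg-/-* cells, and *Il24* was 1.30 times *Il4* in WT and 3.53 times in *Areg-/-* cells. These pairs, like all ratios between 2 genes given here, were chosen after the values were seen. A ratio of this kind is taken within 1 genotype, so that a scaling factor common to a genotype cancels.

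*Ahr* (ENSMUSG00000019256.17) encodes the aryl hydrocarbon receptor, a basic helix-loop-helix factor that binds DNA together with ARNT. The annotated gene spans 35497974 to 35535038 of chromosome 12, minus strand, and its principal transcript has 11 exons. It was the lowest of the 5 members, with 7.28 FPKM in WT against 11.5 FPKM in *Areg-/-* cells. The ratio was 1.58-fold and the log2 ratio 0.66, at position 240. Among 162 genes with a WT level within 2-fold of *Ahr*, 105 were higher, and 69 of these by a larger ratio than *Ahr*. The locus that the table gives for *Ahr* runs on to 35590446, past the annotated gene. It ends where *Gm48236* ends, a long noncoding RNA gene on the opposite strand that overlaps the beginning of *Ahr*. The value of *Ahr* is uncertain to that extent.

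Of 15 partners and targets of AHR, 1 was in the table. This was *Tiparp*, an AHR target whose product ADP-ribosylates the receptor and limits its activity. *Tiparp* had 5.86 FPKM in WT against 9.82 FPKM in *Areg-/-* cells, a log2 ratio of 0.75. *Cyp1a1*, *Cyp1b1* and *Ahrr*, the targets most used to read AHR activity, and the partner *Arnt* were not in the table. In the vicinity of *Ahr*, *9130015A21Rik* and *Tspan13*, chosen after their values were seen, were within 1 Mb of it. *Tspan13*, which encodes a tetraspanin, had 43.3 FPKM and 66.3 FPKM, and *9130015A21Rik* had 0.973 FPKM in WT against 4.28 FPKM in *Areg-/-* cells.

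*Lag3* (ENSMUSG00000030124.2) encodes the inhibitory receptor LAG-3, which binds MHC class II. The gene is on chromosome 6 from 124904361 to 124911705, minus strand, with 8 exons and no overlapping gene. It had 125.1 FPKM in WT against 186.8 FPKM in *Areg-/-* cells. Its ratio was 1.49-fold, the smallest of the members and just under 1.5-fold, and its log2 ratio of 0.58 gave position 282. Of 35 genes with a WT level within 2-fold of *Lag3*, 23 were higher, 10 by a larger ratio and 13 by a smaller one. *Cd4*, a structural relative of *Lag3*, lies 16.1 kb away. Of 11 genes looked for at this locus, *Cd4* included, *Lag3* was the only one in the table.

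Of 16 co-inhibitory receptors and ligands, 5 were in the table, 3 higher and 2 lower, with a median log2 ratio of 0.58. The count includes the member *Lag3*, and without it 2 were higher and 2 lower, beside 69.1% higher over the whole table. *Pdcd1*, which encodes PD-1, had 36.9 FPKM in WT against 24.3 FPKM in *Areg-/-* cells. *Btla*, a receptor for HVEM, had 81.3 FPKM and 50.4 FPKM. On the higher side next to *Lag3* were *Lgals3*, which encodes galectin-3, with 22.9 FPKM and 62.7 FPKM, and *Cd200r1*, the receptor of CD200, with 1.48 FPKM and 2.68 FPKM. *Lag3* was 3.39 times *Pdcd1* in WT and 7.69 times *Pdcd1* in *Areg-/-* cells.

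MHC class II, the classical ligand of LAG-3, is not made by naïve mouse T cells. Of 10 genes of the MHC class II pathway 3 were in the table, and all 3 were higher in *Areg-/-* cells, beside 69.1% of the whole table, with a median log2 ratio of 1.16. *H2-Ab1*, a chain of the classical molecule I-A, had 16.0 FPKM in WT against 26.1 FPKM in *Areg-/-* cells. *H2-DMb1* and *H2-Ob*, chains of the molecules that edit peptide loading, were at 1.27 and 3.08 FPKM, and at 1.48 and 3.31 FPKM. Of 5 B cell markers and of 10 myeloid and dendritic cell markers, 0 were in the table. Of 5 markers of CD8+ T cells and NK cells, 2 were in it, both higher. *Cd8a* had 2.13 FPKM and 3.32 FPKM, *Klrd1* had 1.44 FPKM and 4.40 FPKM, and their sum was 3.57 FPKM in WT against 7.72 FPKM in *Areg-/-* cells. The defining markers *Cd8b1* and *Ncr1* were not in the table, and no marker in it was at 0. Some further genes of cytotoxic cells, chosen after their values were seen, were higher by larger ratios than the members. *Gzma*, which encodes granzyme A, had 13.7 FPKM in WT against 70.8 FPKM in *Areg-/-* cells, and *Prf1*, which encodes perforin, had 3.41 FPKM and 9.27 FPKM. The log2 ratios of the NK receptor genes *Klra7*, *Klrc1* and *Klrk1* were 2.82, 2.08 and 1.52. Those of *Trdc* and *Tcrg-C2*, constant regions of the γδ T cell receptor, were 1.39 and 1.15. *Klra7* and *Tcrg-C2* have close paralogs, which makes their values uncertain. Other genes that cytotoxic cells also express were lower, with log2 ratios of -0.47 for *Ccl4*, -0.52 for *Tbx21* and -0.77 for *Tnf*. CD8+ T cells and NK cells can also express *Lag3* and *Il10*. The cells were sorted as CD4+CD62L+ before culture. Whether other cells remained, and their part in the members' values, was not tested.

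Of 16 transcription factors tied to Tr1 cells or to the control of *Il10*, 6 were in the table, 4 higher and 2 lower. Their median log2 ratio was 0.62. The count includes the member *Ahr*, and without it 3 were higher and 2 lower, beside 69.1% higher over the whole table. *Maf*, whose product c-MAF is the partner of AHR on *Il10* and *Il21*, had 16.1 FPKM in WT against 36.7 FPKM in *Areg-/-* cells, a log2 ratio of 1.19 and so a larger one than any of the 5 members. It was 2.21 times *Ahr* in WT and 3.19 times in *Areg-/-* cells. *Prdm1*, which encodes BLIMP-1, had 1.41 FPKM and 2.20 FPKM. *Nfil3*, a bZIP factor, had 102.3 FPKM and 154.6 FPKM, a log2 ratio of 0.60 that is below the median of the table. *Egr3* and *Tbx21* were lower. *Egr3*, a factor induced through the T cell receptor, had 24.9 FPKM in WT against 15.0 FPKM in *Areg-/-* cells, and *Tbx21*, which encodes the Th1 factor T-bet, had 51.1 FPKM and 35.7 FPKM. *Egr2*, *Eomes*, *Batf* and *Irf4* were not in the table.

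Among 15 surface and effector genes of Tr1 cells, 5 were in the table, 4 higher and 1 lower, the latter being *Pdcd1*. The median log2 ratio of the 5 was 0.71. This count includes the member *Lag3*, and without it 3 were higher and 1 lower, beside 69.1% higher over the whole table. *Entpd1* and *Nt5e* encode CD39 and CD73, the ectoenzymes that turn extracellular ATP into adenosine in turn. *Entpd1* had 2.60 FPKM in WT against 5.57 FPKM in *Areg-/-* cells, and *Nt5e* had 3.60 FPKM and 5.88 FPKM. *Gzmb*, which encodes granzyme B, was far above the members in level, with 736.9 FPKM and 1362 FPKM. *Itga2*, which encodes the Tr1 surface marker CD49b, and *Il27ra* were not in the table. Of 9 genes of Foxp3+ Treg cells 1 was in the table, the co-receptor gene *Nrp1*, and it was lower, with 3.08 FPKM in WT against 2.09 FPKM in *Areg-/-* cells. *Foxp3* was not in the table. Over all lists, 22 of 149 symbols other than the members were in the table, 14 higher and 8 lower, with a median log2 ratio of 0.67.

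**Figure D3:**
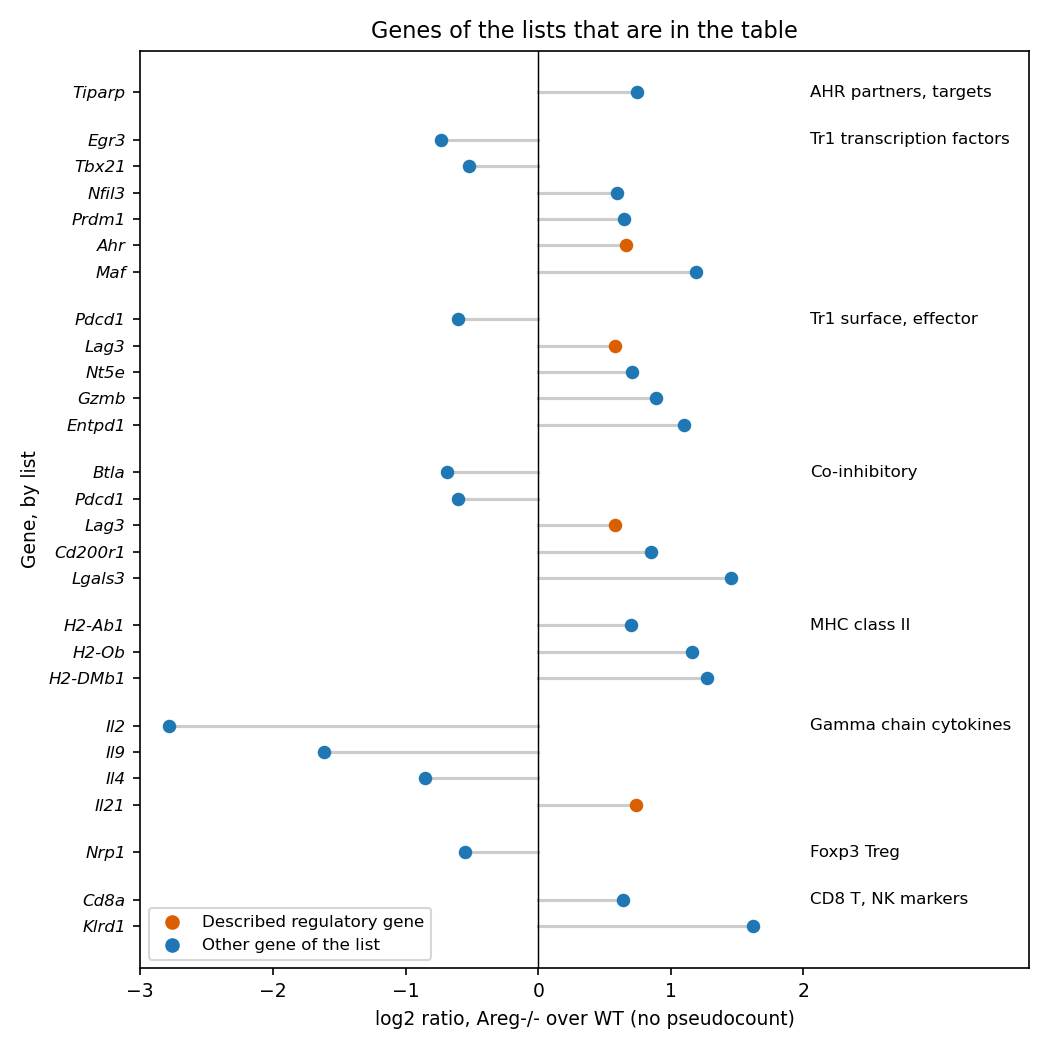
Log2 ratio of *Areg-/-* over WT (FPKM, no pseudocount) for each gene of 8 of the lists that is in the table. Regulatory genes are in orange and the other genes in blue. The regulatory genes drawn are *Ahr*, *Lag3* and *Il21*, because *Il10* and *Il24* are in none of these lists. *Maf* (1.19), *Entpd1* (1.10), *Lgals3* (1.45) and others lie to the right of the regulatory genes. *Pdcd1*, *Btla*, *Egr3*, *Tbx21*, *Il2*, *Il4*, *Il9* and *Nrp1* lie below 0.

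Between themselves the members differed in level far more than in ratio. From highest to lowest the order was *Il24*, *Lag3*, *Il21*, *Il10* and *Ahr* in both genotypes. *Il24* was 18.0 times *Ahr* in WT and 17.2 times in *Areg-/-* cells, whereas the log2 ratios of the 5 spanned 0.20. *Il24* and *Lag3* stood 1.05-fold apart in WT and 1.06-fold apart in *Areg-/-* cells, and *Il21* was 3.05 and 2.97 times *Il10*. Without values per sample it cannot be said which neighbours in this order differ beyond their spread. In absolute terms the differences followed the level. *Il24* was 66.6 FPKM and *Lag3* 61.7 FPKM higher in *Areg-/-* cells, at positions 17 and 18 of the table by this difference, and *Il21* was 18.6 FPKM, *Il10* 6.50 FPKM and *Ahr* 4.22 FPKM higher.

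**Figure D4:**
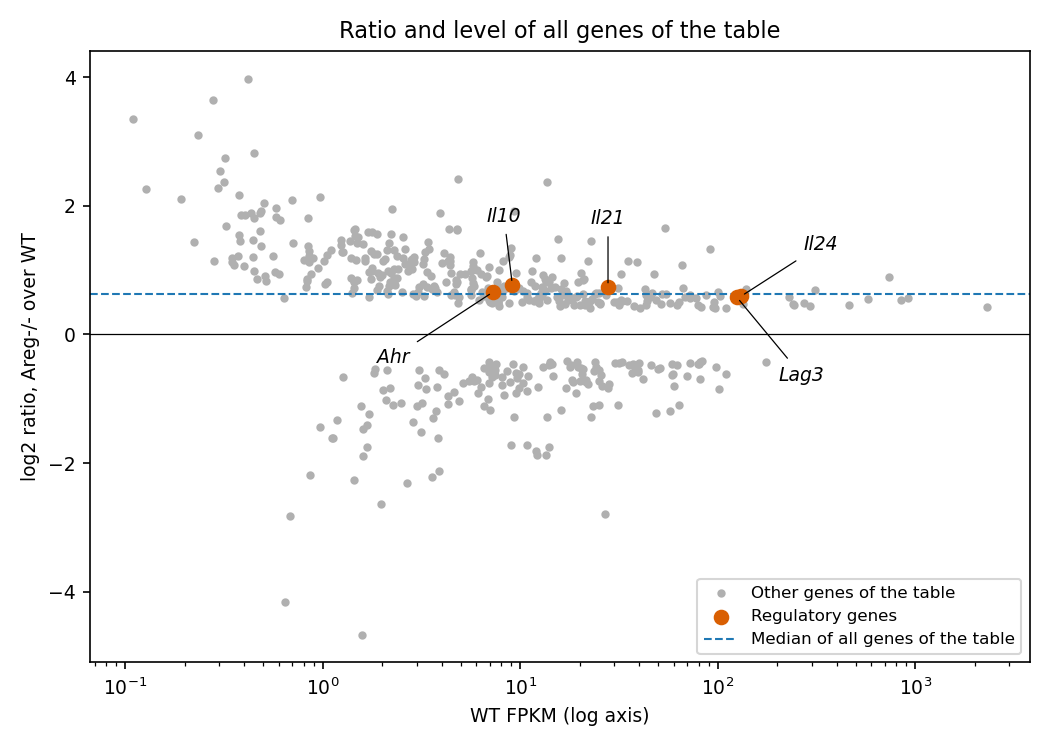
Log2 ratio of *Areg-/-* over WT against WT FPKM (log axis) for all 515 genes of the table, with the 5 regulatory genes in orange and the median of all genes (0.62) as a dashed line. The members lie within the band of higher genes, near the dashed line, and the empty band around 0 shows that genes with small ratios are not in the table.

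The genes most like each member were sought by the distance between both log2 FPKM values, over 2 genotypes only. The nearest to *Il10* were *Neurl3* (distance 0.046), *AB124611* and *Cdk5rap1*. *Il24* was nearest to *Selplg* (0.092), which encodes the selectin ligand PSGL-1, then to *Lag3* (0.11) and *Arid5a*. *Lag3* had the same genes around it, with *Il24* (0.11) the nearest, then *Selplg* and *Arid5a*. *Il21* was nearest to *Flot1* (0.072), with *Il16* also among its 3 nearest, and *Ahr* to *Rnf125* (0.084), *Lpin1* and *Tbc1d2b*. With 2 values per gene, such nearness says only that levels were alike in both genotypes.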

How the data were processed

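RNA from Th9 cells of WT and *Areg-/-* mice, 2 samples of each, was sequenced from poly(A)-selected libraries. According to the labels and methods, the authors checked reads with FastQC, trimmed them and mapped them to GRCm38 (TopHat2, Bowtie2). The methods name HTSeq-count to measure expression from the mapped reads, and then Cuffdiff for normalization. The version of Cuffdiff and its annotation are not given in the sources used here. The deposited FPKM values are 1 per genotype, with both samples combined by the authors, so that the depth of single samples is unknown. The table also holds the authors' fold changes, test statistics, p-values and q-values, none of which was used. Only genes the authors marked as significant, all 515, are in it.

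The log2 ratio is that of the 2 FPKM values with no pseudocount added, and no test was run. FPKM scales with the total of a library, so an offset between genotypes would move all ratios alike. Members and gene lists were chosen with earlier results of these data known, and support nothing independently. The 16 lists hold 153 symbols found in GENCODE M21 (GRCm38), from which positions counted from 1 were taken, and 1 second name of a gene already listed. Named were the members, list genes in the table, and the 3 nearest genes of each member, of which 1 is not reported here. Listed neighbours on the chromosome, cytotoxic genes and *Xist* were added after their values were seen. Calculations were tested on simulated data. Alternatives were pseudocounts of 1 and 0.1, centring, scaling to the summed FPKM, and a minimum of 1 FPKM. Python 3.11.15, numpy 2.4.6, pandas 2.3.3 and matplotlib 3.10.9 were used.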

Additional observations from a re-analysis of the deposited data

How the results depend on the processing

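No paired analysis was possible because each genotype has a single combined value, and leaving out replicates was not run for the same reason. All 5 members were higher with either pseudocount and after scaling to the summed FPKM of the table (log2 ratio of sums 0.43). After centring on the median of all genes (0.62), 3 were higher, and the log2 ratio became -0.032 for *Il24* and -0.046 for *Lag3*. That median is taken over genes the authors called, so the shift follows from the subtraction. The median log2 ratio of the members, 0.66, was 0.59 with log2(FPKM + 1), 0.65 with log2(FPKM + 0.1), 0.035 after centring and 0.23 after scaling to the sum. Their median position by log2 ratio, 240 of 515, was 216 with log2(FPKM + 1) and 227 of 497 genes with at least 1 FPKM in a genotype. Of the other listed genes, 14 were higher and 8 lower as deposited, beside 69.1% higher over the whole table. After centring, 13 of the listed genes were higher and 9 lower. The precision set by depth is unknown for these values.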
